A study of Arabidopsis thaliana with 20 samples.

Results

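AT1G01080 and AT3G04500 are Arabidopsis thaliana genes for proteins with an RNA recognition motif (RRM), a small protein fold that binds RNA. They are 2 of the 692 array features that the platform annotation pairs with exactly 1 gene, out of 3439 features in all. Both were chosen from the difference between the arrays labelled hcf145 and those labelled WT, AT1G01080 as a gene that was lower and AT3G04500 as one that was higher in hcf145. Their levels are therefore given as a description, without a test. Total RNA was measured on 10 arrays of plants labelled hcf145, a mutant described as unable to assemble photosystem I properly, and on 10 arrays of wild-type plants (WT). Both groups are of the ecotype Wassilevskija, and the arrays of each group are numbered 1 to 10. The titles name hcf145, while the source names of the same samples give gun5, a different mutant, and this conflict cannot be settled from the labels. Neither HCF145 (AT5G08720) nor GUN5 (AT5G13630) had a feature to itself. HCF145 shares a feature with AT4G01650, so its signal cannot be assigned to either gene. That feature ran from 4.09 to 7.65 in hcf145, against 1.42 to 3.64 in WT, and was 1.38 ± 0.28 higher in hcf145 on the normalised log2 scale (SE, 5 averages of adjacent arrays per group, limma adjusted p = 0.0201). It therefore does not check the label, and every direction is that of the samples so titled. The labels give neither the allele nor the organ, age or growth conditions of the plants, and nothing in them ties arrays to separate plants, so any spread between arrays may be technical.

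RRM proteins bind single-stranded RNA and act in nearly every step of its life, among them splicing, transport, stability and translation. A family of them, the chloroplast ribonucleoproteins, is encoded in the nucleus and imported into the chloroplast, where its members bind many plastid transcripts and contribute to their stability and editing. AT1G01080 is placed in that family here on background knowledge, and AT3G04500 is known here only as an RRM protein. HCF145, the gene that gives the mutant its name, is known for keeping the chloroplast psaA-psaB-rps14 transcript, which encodes the core of photosystem I, from being lost.

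The arrays were not 20 independent measurements. In each group the numbers run in adjacent pairs, arrays 1 and 2 being the first of them. All 20 arrays deviated from their group mean most like their partner in the pair, with a consensus correlation of 0.661 between partners. Tests below therefore compare 5 averages of adjacent arrays per group. Differences are those of quantile-normalised log2 intensities, hcf145 minus WT, with standard errors (SE) from a limma fit across all features. The column medians of the deposited intensities ran from 0.311 to 0.385 on hcf145 arrays and from 0.339 to 0.493 on WT arrays. The median feature accordingly differed by -0.32 in the values as deposited, against -0.06 after normalisation. The 10 brightest features held 15.6 to 21.0% of the signal on hcf145 arrays and 11.0 to 13.9% on WT arrays, and the part of this in the results below was not tested.

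AT1G01080 was dimmer on the hcf145 arrays. Its deposited intensity there had a lowest value of 0.0255, a median of 0.0990 and a highest value of 0.199, against a lowest value of 0.187, a median of 0.286 and a highest value of 0.430 on WT arrays. The groups met at a single point. WT array 3, at 0.187, lay below hcf145 array 1, at 0.199, and every other hcf145 value was below every WT value. The means were 0.105 ± 0.0604 in hcf145 and 0.294 ± 0.0673 in WT (SD, n = 10 arrays each), a 2.80-fold difference in mean intensity. On the normalised log2 scale the difference was -1.28 ± 0.41 (SE, 5 averages per group), a 2.42-fold lower level. In bulk RNA of this kind, fewer cells that express a gene and less RNA per cell cannot be told apart.

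Relative to their mean, the hcf145 values of AT1G01080 varied more than its WT values. The coefficient of variation was 57.5% in hcf145, against 22.9% in WT. The SD itself was no larger in hcf145 (0.0604, against 0.0673 in WT), so the higher coefficient comes from the lower mean. A similarly dim gene described below, ATAB2, had a coefficient of variation of 60.1% in WT at a mean of 0.106. Arrays 4, 6, 7 and 8 of hcf145 stood at 0.0492, 0.0604, 0.0547 and 0.0255, below the 10th percentile of all deposited values (0.0653), and 0 of the 10 WT arrays did. At that level the log scale widens small differences. With a pseudocount of 0.0653 added before taking logs, the difference shrank to -0.79, and without arrays 7 and 8 of both groups it was -0.98.

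AT3G04500 was brighter on the hcf145 arrays. Its intensity there had a lowest value of 0.444, a median of 0.816 and a highest value of 1.15, against a lowest value of 0.258, a median of 0.317 and a highest value of 0.381 on WT arrays. No hcf145 value reached down to the WT range. Over all features tested, 1.73% lay wholly higher in hcf145 in this way, and nothing is read from this, since the gene was chosen for its difference. The means were 0.813 ± 0.210 in hcf145 and 0.318 ± 0.0429 in WT (SD, n = 10 arrays each), a 2.56-fold difference in mean intensity. The normalised log2 difference was 1.57 ± 0.24 (SE, 5 averages per group), or 2.98-fold. The lowest hcf145 value came from array 2, while its adjacent array 1 stood at 0.837, above the median of the group. WT values were tight, with a coefficient of variation of 13.5%, against 25.9% in hcf145.

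**Figure D1:**
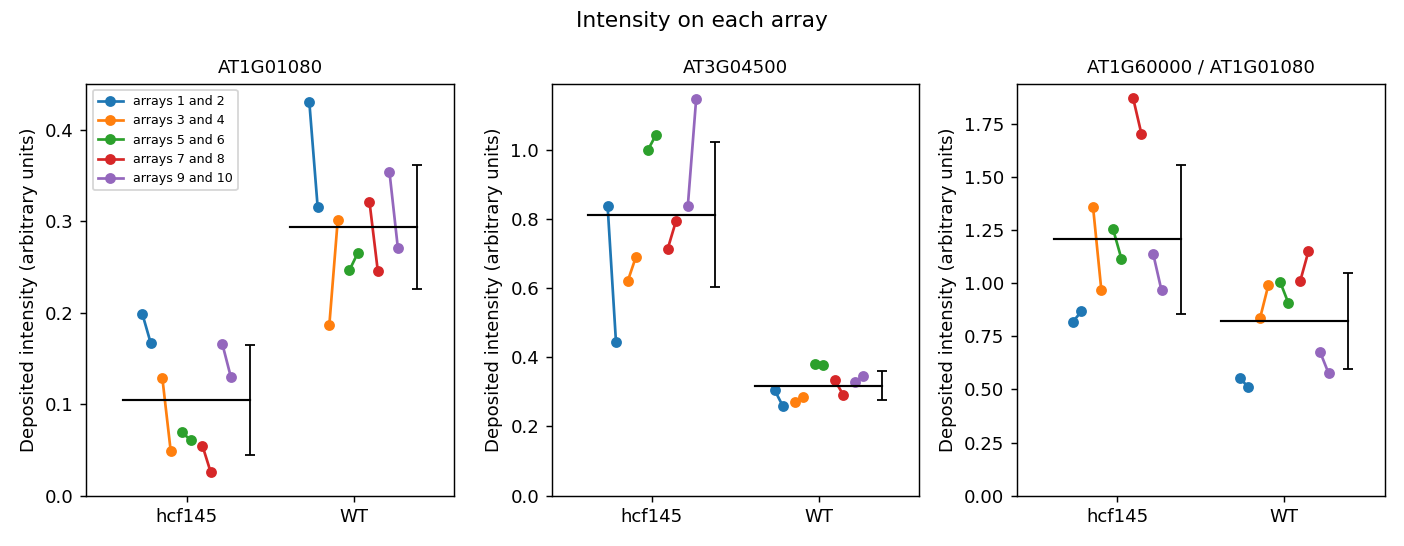
Deposited intensity (arbitrary units, linear axis from 0) on each hcf145 and WT array for the features of AT1G01080 and AT3G04500 and for the feature shared by AT1G60000 and AT1G01080. Each point is an array, lines join adjacent array numbers, and horizontal bars with whiskers are the mean and SD of 10 arrays; AT3G04500 runs from 0.444 to 1.15 in hcf145 and from 0.258 to 0.381 in WT.

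Ranks on each array, which do not depend on how the arrays were scaled, showed the same opposite moves. AT1G01080 stood at a median percentile of 15.4 among the 3439 features on hcf145 arrays (7.27 to 30.8), against 34.4 on WT arrays (20.4 to 51.8). AT3G04500 stood at a median percentile of 76.5 on hcf145 arrays (57.7 to 83.8), against 35.6 on WT arrays (28.9 to 50.0). The ranks of AT1G01080 overlapped between the groups and those of AT3G04500 did not. The share of all features with ranks wholly apart was not computed. Nothing is read from these ranks either, since both genes were chosen for their difference.

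The averages of adjacent arrays gave the same direction throughout. For AT1G01080 the difference between averages of like number was -0.63 for arrays 1 and 2, -0.93 for arrays 3 and 4, -1.27 for arrays 5 and 6, -2.47 for arrays 7 and 8, and -1.08 for arrays 9 and 10. The pair 7 and 8 thus differed most, through its hcf145 arrays, whose normalised log2 average was -4.53, against -2.06 in WT. For AT3G04500 the differences were 1.38, 1.68, 1.97, 1.49 and 1.35 in the same order, a far narrower span. Of all features tested, 17.4% were lower in hcf145 in all 5 such differences and 15.5% were higher in all 5, and again nothing is read from this for the chosen genes.

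The median gap between adjacent arrays was below the span of the pair averages, though the widest gaps came closer to it or passed it. The median gap of AT1G01080 was 0.34 on the log2 scale in hcf145 and 0.43 in WT. For AT3G04500 it was 0.16 in hcf145 and 0.09 in WT. For AT1G01080 the widest gap within a pair was 1.25 on the log2 scale in hcf145, where the averages spanned 2.25, and 0.72 in WT, where they spanned 1.02. For AT3G04500 the widest gap was 0.91 in hcf145, on arrays 1 and 2, which exceeded the span of 0.83. In WT its widest gap was 0.23 and its averages spanned 0.71.

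AT1G01080 also appears on a second feature, together with AT1G60000, another gene of the chloroplast ribonucleoprotein family. The annotation pairs that feature with both genes, so its signal cannot be assigned to either. It was brighter in hcf145, the reverse of the feature of AT1G01080 alone. Its intensity had a lowest value of 0.818, a median of 1.13 and a highest value of 1.87 in hcf145, against a lowest value of 0.509, a median of 0.870 and a highest value of 1.15 in WT. The groups overlapped, though hcf145 was higher at 9 of the 10 array numbers. Adjacent arrays are not independent, and the share of all features with such a count was not computed. The means were 1.21 ± 0.351 in hcf145 and 0.821 ± 0.227 in WT (SD, n = 10 arrays each), and the normalised log2 difference was 0.72 ± 0.28 (SE, 5 averages per group). The difference was positive in all 5 averages of like number, from 0.53 to 0.96, as it was for 15.5% of all features tested. No test is given, since both features share a gene and the contrast used for the choice. The stretch of gene that each feature carries was not analysed here.

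Other RNA-binding genes were thinly covered. Of 67 RRM genes listed for comparison (chloroplast ribonucleoproteins, organelle editing factors, glycine-rich RNA-binding proteins, SR splicing proteins, further splicing and flowering factors, poly(A)-binding and related proteins, and genes with RRM in their RefSeq name), 1 had a tested feature to itself. This was AT4G09040, a further chloroplast ribonucleoprotein. Of the listed chloroplast RNA factors without an RRM and of the markers of organs and cell types, 0 of 24 in each list were measured, so these lists could not be described and the makeup of the tissue could not be checked. A further 3 RRM genes (AT2G37510, AT1G70200 and UBA1A, AT2G22090) and 2 other plastid RNA-binding proteins (PAC, AT2G48120, and ATAB2, AT3G08010) were recognised among the array's gene names and added.

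None of these 6 genes passed the test. In limma on the averages, 0 of 6 had an adjusted p under 0.05, while 7.39% of all features tested did, and 0 of 6 had an unadjusted p under 0.05, beside 26% of all features. With the 20 arrays counted separately the count was also 0 of 6, beside 29.1% of all features. Their median difference was 0.17, against -0.06 for all features tested, and in the values as deposited it was -0.03.

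AT4G09040 had nearly the same mean intensity in both groups, 0.464 ± 0.197 in hcf145 and 0.467 ± 0.132 in WT (SD, n = 10 arrays each). Its normalised log2 difference was 0.20 ± 0.24 (SE, limma adjusted p = 0.618), and -0.06 in the values as deposited. It ranged from 0.221 to 0.962 in hcf145, and both extremes came from the adjacent arrays 8 and 7.

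UBA1A, which is named for its association with the RRM protein UBP1, had the widest difference of the 6 in the main setting, though not in every alternative. In the values as deposited ATAB2 was further from 0, at -0.82, against 0.33 for UBA1A. With zeros set to the lowest positive value AT1G70200 was at 1.04, against 0.60 for UBA1A. The mean intensity of UBA1A was 0.532 ± 0.270 in hcf145 and 0.404 ± 0.157 in WT (SD, n = 10 arrays each), a log2 difference of 0.57 ± 0.34 (SE, limma adjusted p = 0.301). AT2G37510 had a log2 difference of 0.14 ± 0.32 (SE, limma adjusted p = 0.802), with a mean intensity of 2.29 ± 0.748 in hcf145 and 2.15 ± 0.525 in WT (SD, n = 10 arrays each). AT1G70200 had a difference of 0.23 ± 0.63 (SE, limma adjusted p = 0.845), but its sign rested on WT arrays 3 and 4, listed at 0 and at 0.0835, while every other WT array lay at -0.56 or above on the normalised log2 scale, where array 4 was at -3.86. Without arrays 3 and 4 of both groups its difference was -0.56.

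PAC, or PALE CRESS, a plastid protein needed for chloroplast development, had a log2 difference of 0.04 ± 0.24 (SE, limma adjusted p = 0.938), and -0.24 in the values as deposited. ATAB2, a protein known for translation of photosystem I and II core subunits, was dim, with a mean intensity of 0.0499 ± 0.0345 in hcf145 and 0.106 ± 0.0637 in WT (SD, n = 10 arrays each). Its log2 difference was -0.28 ± 0.54 (SE, limma adjusted p = 0.770), with 1 array of each group listed at 0. That value was unstable, at -0.82 in the values as deposited, -0.81 without arrays 7 and 8 of both groups and 0.03 without arrays 9 and 10, none of them past the threshold. A further plastid RNA-binding gene, AT1G12800, and a feature shared by AT1G73530, AT5G54580 and AT2G37510 had too few values above 0 to be tested.

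**Figure D2:**
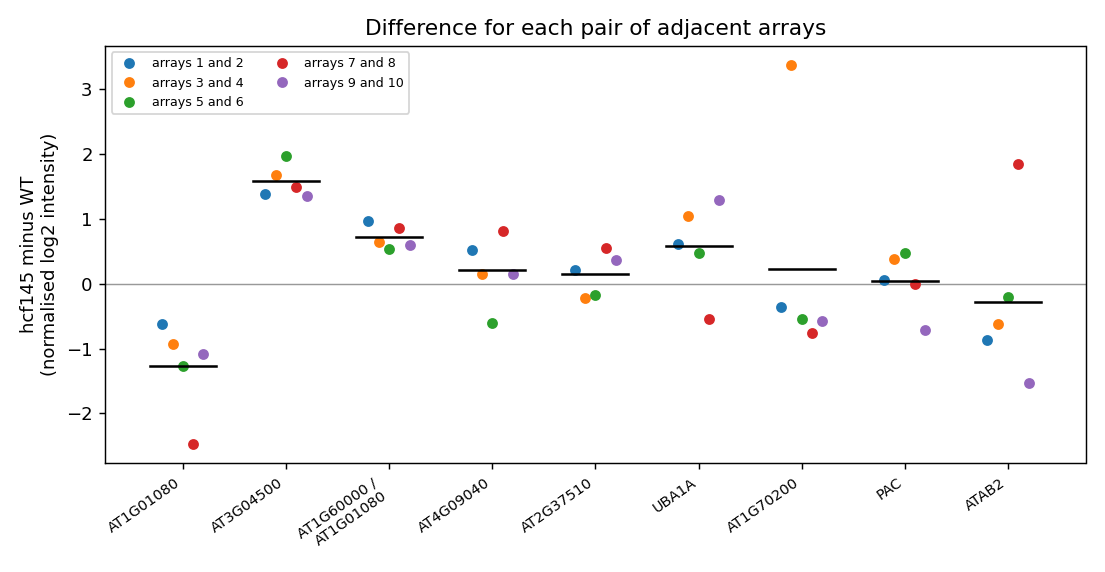
Difference between hcf145 and WT (normalised log2 intensity, hcf145 minus WT) for each pair of adjacent arrays of like number, by gene. Points are the 5 pairs and bars their mean. AT1G01080 lies below 0 and AT3G04500 above 0 for all 5, the direction for which each was chosen. The feature shared by AT1G60000 and AT1G01080 lies above 0 for all 5, from 0.53 to 0.96. The 6 other RNA-binding genes scatter on both sides of 0, AT1G70200 from -0.76 to 3.37.

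Among all 3287 features tested, on the normalised scale, 48 were further up than AT3G04500, 9 of them with 1 gene, and 100 were further down than AT1G01080, 22 of them with 1 gene. These places describe the choice and carry no test.

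**Figure D3:**
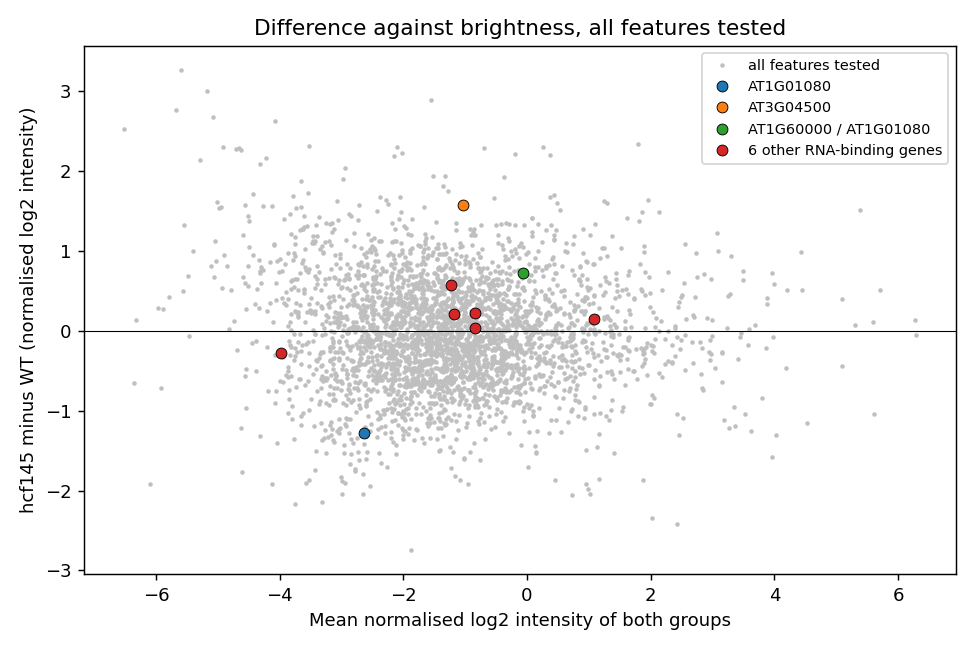
Difference between hcf145 and WT (normalised log2 intensity, hcf145 minus WT) against the mean normalised log2 intensity of both groups, with 1 grey point per feature tested (3287). AT3G04500 (1.57) and AT1G01080 (-1.28) lie towards the upper and the lower edge of the cloud, the shared feature of AT1G60000 and AT1G01080 lies above 0 at 0.72, and the 6 other RNA-binding genes lie between -0.28 and 0.57.

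Other genes followed similar patterns over the 20 arrays. Likeness was measured as Pearson's r of normalised log2 values with each of the 545 other single-gene features that had no missing value. All values of r come from the same 20 arrays in 2 groups, so features that differ between the groups in the same direction have a high r by that alone. For AT3G04500 the most similar were AT2G04540 (r = 0.94), AT3G54930 (r = 0.91) and AT4G24750 (r = 0.90), whose differences were 1.33, 1.92 and 1.32. For AT1G01080 they were AT4G29120 (r = 0.86), AT4G13680 (r = 0.85) and AT1G62150 (r = 0.84), with differences of -0.64, -0.77 and -0.52. The companions of AT1G01080 thus had smaller differences than it, while those of AT3G04500 lay on both sides of its own. These genes did not stand apart, as the next feature had an r of 0.90 for AT3G04500 and 0.83 for AT1G01080. The order also changed with the scaling. AT3G09850 came first for AT3G04500 in the values as deposited (r = 0.92) and with median centring (r = 0.95).

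After the group means were taken out, the companions of AT3G04500 were different genes. They were IYO (MINIYO, r = 0.82), GLDH (r = 0.79), the enzyme of the last step of ascorbate synthesis, and AT5G06790 (r = 0.76). For AT1G01080, AT4G29120 remained (r = 0.77), after AT3G50130 (r = 0.84) and AT3G16310 (r = 0.79). These values describe how arrays of a group deviate together, and adjacent arrays share much of that.

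The direction of both genes on the features they have to themselves, which the choice itself favours, was the same under all 15 alternatives run for them. Part of this was fixed beforehand. Counting the 20 arrays separately or adding a block left the difference unchanged by construction. Leaving out 1 pair could not reverse it, since all 5 pairs had the same direction. The feature shared by AT1G60000 and AT1G01080, which was brighter in hcf145, is not part of this. The difference of AT1G01080 ran from -1.71 in the values as deposited to -0.79 with the pseudocount, and that of AT3G04500 from 1.32 in the values as deposited to 1.63 without arrays 9 and 10. Both were lower in the deposited values than after normalisation, as was the median of all features tested.

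**Figure D4:**
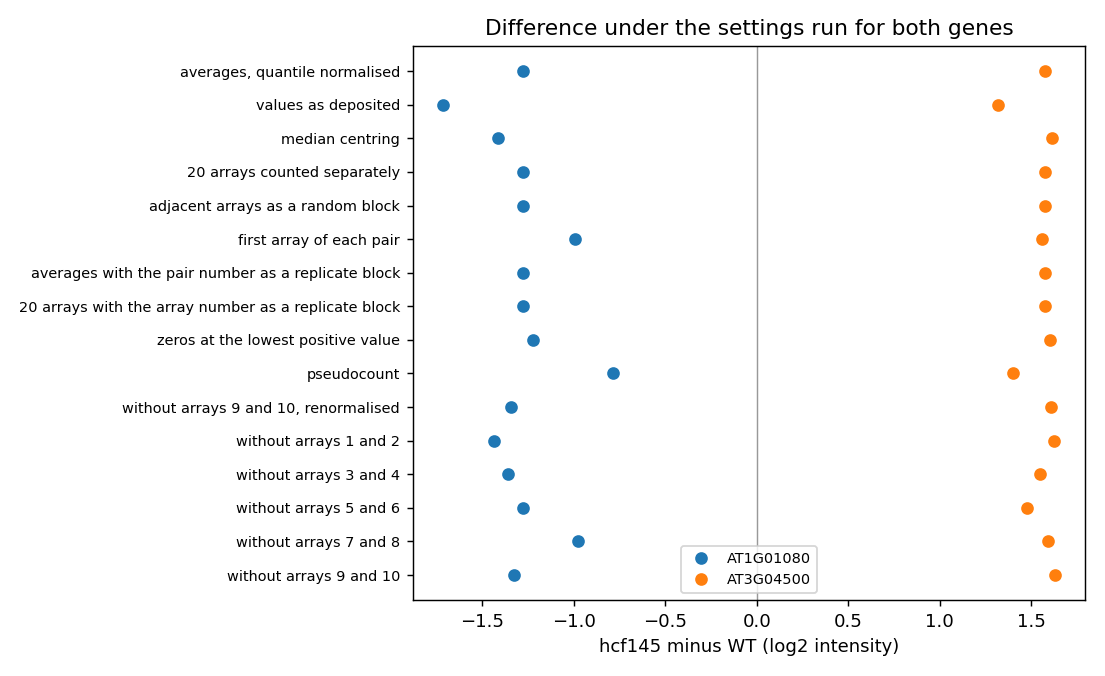
Difference between hcf145 and WT (log2 intensity, hcf145 minus WT) of the features that AT1G01080 and AT3G04500 have to themselves. The main setting and the 15 alternatives run for these features are shown, 1 row per setting. AT1G01080 stays between -1.71 and -0.79 and AT3G04500 between 1.32 and 1.63.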

How the data were processed

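The data were 20 arrays, 10 titled hcf145 and 10 titled WT. The values the authors deposited are linear intensities, a unit read from the values themselves. Quantification, background subtraction, scaling and the averaging of spots are not given in the sources used here. Nor is the reason why the highest value was 100 on every hcf145 array. Precision is limited by the 5 averages per group, and the number of separate plants behind them is not given. Of the 692 features with 1 gene, genes were named through the platform annotation and the RefSeq table of TAIR10.1, with no coordinates used. Zeros were set missing, log2 values were quantile normalised, and 152 features were dropped because a group had under 5 values, leaving 3287. Adjacent arrays of a group were averaged. Groups were compared with limma 3.58.1 in R 4.3.3 (two-sided, no covariates) with Benjamini-Hochberg adjustment at 0.05, and its code was tested on simulated data.

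The members and lists were chosen with earlier results of these data known. Named are both members, for each the 3 features most like it, every measured chloroplast ribonucleoprotein and, per list, up to 3 rises and 3 falls; the 5 RNA-binding genes added by name and the shared features fall outside this rule and were chosen after the files were seen. Same-numbered arrays had correlated deviations across the groups (0.09 to 0.43), not over 0.1 for every number, so they were not treated as paired. Alternatives were other scalings, replicate units, treatments of zeros, filters and left-out arrays.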

Additional observations from a re-analysis of the deposited data

Results flagged for a closer look

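Single arrays stood apart from the rest of their group in 2 of the 18 groups of arrays looked at (9 features in 2 groups). For independent, normally distributed values chance gives about 1 in 20. Adjacent arrays were not independent, and normality was not checked. AT3G04500 was at -1.10 on the normalised log2 scale on hcf145 array 2, against -0.49 to 0.21 on the other hcf145 arrays. AT1G70200 was at -3.86 on WT array 4, against -0.56 to 0.04 on the other WT arrays with a value. The gap to the nearest array was 0.47 of the range of the group for AT3G04500 and 0.85 for AT1G70200. The adjacent WT array 3 was listed at 0 for AT1G70200 and carries no log value.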

How the results depend on the processing

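The differences of AT1G01080 and AT3G04500, on the feature each has to itself, kept their direction in 15 of 15 alternatives each. Several of these could not change it. Separate counting of arrays and blocks left the difference as it was, and leaving out 1 pair could not reverse it. Leaving out 1 pair of adjacent arrays of both groups, the differences ran from -1.44 to -0.98 and from 1.48 to 1.63. The count of features called, 243 on the averages, was 956 with the 20 arrays counted separately, 425 with adjacent arrays as a random block and 153 with the first array of each pair. With the pair number as a replicate block it was 500, and with the array number as a replicate block on 20 arrays 1240; each pair average of hcf145 did not always correlate best with its own number in WT (4 of 5 did). Leaving out 1 pair gave 24 to 308 features, 24 without arrays 7 and 8 and 308 without arrays 9 and 10. Of the calls, 48.1% were higher in hcf145, against 18.3% in the values as deposited and 62.2% with median centring. The 6 other RNA-binding genes stayed short of the threshold in each alternative that kept them, the replicate blocks included (18 alternatives for 4 of them, 17 for AT1G70200 and 16 for ATAB2, which the filters on missing or dim values left out); UBA1A came nearest (adjusted p from 0.0663 to 0.550). Of the 3 genes most like each member, 1 or 2 were shared when the scaling was changed. The cause of these changes was not tested. Dim values limit AT1G01080 in hcf145 and ATAB2 in both groups.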
